A study of Mus musculus with 10 samples.

Results

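Complex I, the NADH:ubiquinone oxidoreductase, is the entry point for electrons from NADH into the mitochondrial respiratory chain. Its peripheral arm holds the N module, which oxidises NADH, and the Q module, which passes the electrons to ubiquinone. The proximal and distal parts of its membrane arm pump protons. A few core subunits carry out the catalysis, and the core of the membrane arm is encoded by mitochondrial DNA. The many supernumerary subunits, all of nuclear origin, stabilise the enzyme, and assembly factors build it without staying in it. Heart muscle, which depends on oxidative phosphorylation, is among the tissues richest in the complex.

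The genes described here are those whose symbol begins with Nduf, taken from 2 tables of mouse heart RNA-seq in a study of LARP7, an RNA-binding protein of the 7SK small nuclear ribonucleoprotein. They numbered 31 of 15498 genes listed at embryonic day E15.5 (24 subunits, 5 assembly factors, 2 other symbols) and 51 of 15989 genes listed in the adult (37 subunits, 8 assembly factors, 6 other symbols). All 31 embryonic genes stood in the adult table too. The 13 subunits listed in the adult alone, among them Ndufv1, Ndufv2 and Ndufs8, are not analysed here at E15.5.

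All mice were C57BL/6. At E15.5 whole hearts of the genotype Larp7+/+ (3 samples, wild type) were compared with whole hearts of the genotype Larp7-/- (3 samples, knockout). At 4 months, heart apex of Larp7f/f mice (2 samples, control) was compared with apex of Myh6Cre;Larp7f/f mice (2 samples, labelled mCKO), in which Cre is driven by the Myh6 promoter of cardiomyocytes, whereas apex tissue also holds cells of other types. Both adult groups carry the floxed alleles, and the control label names no Cre. Nothing in the labels ties each sample to an animal of its own, so the spread between these samples may be technical. The p-values rest mostly on such spread pooled over genes of similar level, not on each gene's own.

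The deposited tables give per-million values rounded to whole numbers. Samples sum to between 998498 and 1001508, so the sequencing depth is unknown and no counting interval can be given. In all 31 and 51 genes the control and the knockout value of the same sample number added to one total within 2, as they did in 8328 of 8366 and 8642 of 8658 genes with a mean of at least 10. The SDs of a gene's control and knockout groups are therefore nearly equal and are not independent estimates, and the groups of a gene fail to overlap whenever the difference has one sign at every number. Changes below are log2 changes of knockout against control on the log2(value + 1) scale, from limma with the sample number as a block. A gene is called at an adjusted p under 0.05 (Benjamini-Hochberg over all tested genes of its table). The values are not scaled by a stated length, so levels are not compared between genes, apart from rank correlations of change with value given under that limit.

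Wild-type hearts had Larp7 values of 96, 88 and 103, and knockout hearts had 45, 54 and 40. These groups did not overlap, and the fall was called (log2 -1.04, SE 0.17, adjusted p = 0.00159, limma). The call was lost at the same change under 4 other settings: with no rounding variance (adjusted p = 0.473), with a mean of at least 10 (0.332), with eBayes without trend and robust options (0.529) and with no moderation of the variance (0.694), all in limma. Under these 4 settings limma called 0 of all tested genes at E15.5. In the adult, Larp7 was 26 and 28 in the control samples and 26 and 24 in the samples labelled mCKO. The adult groups met at 26 and the change was not called (log2 -0.11, SE 0.17, adjusted p = 0.933, limma), so Larp7 RNA does not check the adult labels. The knockout heart of number 1 stood apart at E15.5 in genes of stratified epithelium, picked after their values were seen. The wild-type heart of number 1 did so less, and not in Krt10. Krt15 was 74, 19 and 19 in the knockout hearts of numbers 1, 2 and 3 and 36, 18 and 18 in the wild-type hearts. Sfn was 69, 19 and 18 against 32, 18 and 19. Cldn4 was 32, 8 and 8 against 16, 8 and 8, and Krt10 was 26, 8 and 9 against 8, 9 and 9. Without the knockout heart of number 1 limma called 3 subunits lower, 2 of them among the 3 called with it (Ndufa13 had an adjusted p = 0.0509). The median subunit change was then -0.62 in place of -0.52. Without the wild-type heart of number 1 it called 4, and the median was -0.62 too, since in the paired fit a number with 1 heart left adds nothing to the change. Over all tested genes limma called 42 and 40 lower in these runs.

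Ndufc1, Ndufa13 and Ndufb7 carried the embryonic calls. Bases from the 250 before the RefSeq transcription start site are shown for the called genes (build GRCm38.p6, the gene's strand, 5′ to 3′), cut back to those that also lie before the gene in GENCODE vM21. The annotations place the starts differently: the GENCODE gene covers 33 of the 250 bases for Ndufc1, 87 for Ndufb7 and all 250 for Ndufa13, so that none is shown for Ndufa13. The stretch of Ndufc1 is chr3:51408989-51409205 on the minus strand (217 bases, 58.1% GC) and that of Ndufb7 is chr8:83566508-83566670 on the plus strand (163 bases, 64.4% GC). Neither stretch holds a match to any of the 4 motifs described further on, hence no capitals; the YY1 match of Ndufc1 lies after the RefSeq start.
Ndufc1: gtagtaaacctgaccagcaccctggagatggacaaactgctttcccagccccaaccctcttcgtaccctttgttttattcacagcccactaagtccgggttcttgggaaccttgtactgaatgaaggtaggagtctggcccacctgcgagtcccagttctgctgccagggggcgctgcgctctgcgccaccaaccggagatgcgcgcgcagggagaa
Ndufb7: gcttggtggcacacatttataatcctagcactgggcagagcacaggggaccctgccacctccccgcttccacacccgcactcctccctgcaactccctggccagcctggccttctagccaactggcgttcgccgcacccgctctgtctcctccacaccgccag

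At E15.5 the subunit genes of complex I were lower in the knockout hearts almost throughout. Of 24 subunits 23 had a negative change, against 33.1% of all 13609 tested genes, and the median was -0.52 against 0.107 over all tested genes. All 24 passed the filter on low values. In 21 of 24 every knockout heart lay below every wild-type heart, which held for 8.75% of all tested genes, and in 0 of 24 did every knockout heart lie above. At an unadjusted p under 0.05 there were 19 lower subunits (3.62% of all tested genes were lower at that level). Adjusted over all genes, 3 subunits fell and 0 rose in limma, beside 0.103% of all tested genes called lower and 0.632% called in either direction.

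**Figure D1:**
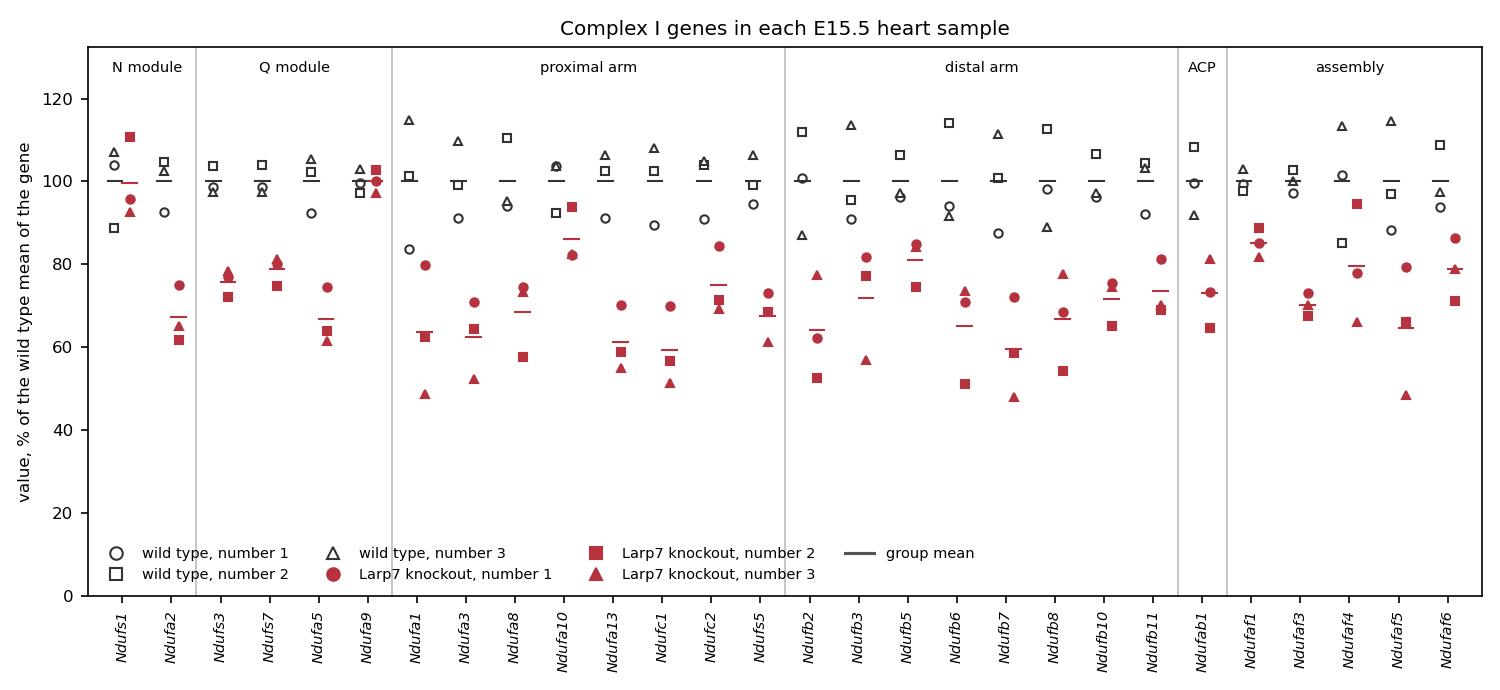
Values of subunit and assembly factor genes in each E15.5 heart, as a percentage of the gene's wild-type mean (y axis, from 0), grouped by module along the x axis; open symbols are wild-type hearts, filled symbols are knockout hearts, the symbol shape is the sample number and short lines are group means. Knockout means run from 59.3% (Ndufc1) to 100% (Ndufa9) of the wild-type mean, and the groups separate in the subunits shown other than Ndufs1, Ndufa9 and Ndufa10.

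The called subunits all belong to the membrane arm, as do 16 of the 24 subunits listed at E15.5. Ndufc1, a small single-span protein of the proximal arm, was 82, 94 and 99 in wild-type hearts against 64, 52 and 47 in knockout hearts. The groups stood apart, at means of 91.7 ± 8.74 and 54.3 ± 8.74 (SD, n = 3), and the log2 change was -0.75 (SE 0.17, adjusted p = 0.0299, limma). The gene lies on chromosome 3 from 51404677 to 51408988 (GRCm38, minus strand).

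Ndufa13, also known as GRIM-19, stood at 121, 136 and 141 in wild-type and at 93, 78 and 73 in knockout hearts. The groups did not overlap, and the mean went from 132.7 ± 10.4 to 81.3 ± 10.4 (SD, n = 3), or -0.70 in log2 change (SE 0.16, adjusted p = 0.0377, limma). Ndufa13 spans chromosome 8 from 69894180 to 69902558 on the minus strand.

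Ndufb7, a distal-arm subunit that faces the intermembrane space and has paired cysteine motifs, was 124, 143 and 158 in wild-type hearts against 102, 83 and 68 in knockout hearts. Its mean of 141.7 ± 17.0 compares with 84.3 ± 17.0 (SD, n = 3), and its log2 change was -0.75 (SE 0.18, adjusted p = 0.0489, limma). Ndufb7 spans chromosome 8 from 83566671 to 83571626 on the plus strand.

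These calls sit close to the threshold. Their standard errors draw largely on other genes of similar level. From each gene's own values alone they were 0.21 (Ndufc1), 0.17 (Ndufa13) and 0.27 (Ndufb7). Without number 3 of either group none of the 3 was called (adjusted p between 0.141 and 0.299, limma), and with a pseudocount of 0.5 in place of 1 the 3 adjusted p-values were 0.0503 (Ndufc1), 0.0593 (Ndufa13) and 0.0806 (Ndufb7) in limma. The authors' deposited table gives an adjusted p of 0.0526 for both Ndufa13 and Ndufb7 and none for Ndufc1, with log2 changes of -0.77, -0.81 and -0.82.

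Next in order came Ndufa3, a small subunit of the proximal arm, at 68, 74 and 82 in wild-type hearts against 53, 48 and 39 in knockout hearts. Its groups were apart too, and it missed the threshold (log2 -0.67, SE 0.17, adjusted p = 0.0547, limma). Ndufa1, a single-span subunit at the base of the arm, had a similar size of change with a wider error (-0.65, SE 0.20). All 16 listed membrane-arm subunits had a negative change, with medians of -0.61 over 8 proximal and -0.54 over 8 distal members. Within the membrane arm the smallest change was that of Ndufa10 (-0.21), a proximal subunit related to nucleoside kinases, at 453, 403 and 453 against 359, 409 and 360. Its groups overlapped, because the knockout heart of number 2 lay above the wild-type heart of that number.

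The peripheral arm had a median nearer to 0. Its 7 listed subunits had a median of -0.34, with 6 negative and 0 called (4 lower at an unadjusted p under 0.05, limma), against -0.58 for the membrane arm. The difference between the arms was not tested. The 2 subunits with changes nearest 0 are both of this arm. Ndufs1, the largest iron-sulfur subunit of the N module, was 514, 439 and 529 in wild-type hearts against 473, 547 and 458 in knockout hearts, with full overlap and a log2 change of 0.00 (SE 0.18). Ndufa9, a Q-module subunit next to the membrane, was 234, 228 and 242 against 235, 241 and 228, also 0.00 (SE 0.16).

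Core subunits of the Q module include Ndufs7 and Ndufs3. Ndufs7, which carries the last iron-sulfur cluster before the quinone, was 257, 271 and 254 against 209, 195 and 212 (log2 -0.34, SE 0.16). Ndufs3, a scaffold of the module, was 403, 424 and 398 against 314, 294 and 320 (log2 -0.40, SE 0.17). In both the groups did not overlap, and neither was called (adjusted p = 0.343 and 0.274, limma). Over the 4 core subunits the median was -0.29, and over the 20 supernumerary subunits it was -0.56. Ndufab1, the acyl carrier protein found at 2 places in the complex, had a change of -0.45 (SE 0.17, adjusted p = 0.206, limma).

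The size of the difference depended on the sample number. Taken number by number, the median subunit difference was -0.32 at number 1, -0.64 at number 2 and -0.41 at number 3, with 23, 21 and 24 of 24 subunits lower in the knockout. The highest difference, in most cases the least negative, was at number 1 for 15 of 24 subunits. The lowest difference was at number 2 for 11 subunits and at number 3 for 12. Ndufb7 shows one pattern, with differences of -0.28, -0.78 and -1.20 at numbers 1, 2 and 3, as do Ndufc1 (-0.35, -0.84 and -1.06) and Ndufa13 (-0.38, -0.79 and -0.94). Ndufb8, another distal-arm subunit, shows the other, with -0.52, -1.05 and -0.20, as does Ndufb6 (-0.41, -1.15 and -0.31). The median over all subunits stayed negative without any 1 sample, between -0.62 and -0.36.

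Of the assembly factors at E15.5 all 5 listed had a negative change, the median was -0.33, and 0 were called (2 lower at an unadjusted p under 0.05, limma). Ndufaf3 and Ndufaf4 act together on the Q module. Ndufaf3 was 36, 38 and 37 in wild-type hearts against 27, 25 and 26 in knockout hearts (log2 -0.49, SE 0.18, adjusted p = 0.187, limma). Its samples agreed closely within each group and the groups were far apart, but the fixed totals tie the spreads of both groups together. Ndufaf4 was 86, 72 and 96 against 66, 80 and 56, with overlap (log2 -0.33, SE 0.17). Ndufaf5, which modifies an arginine of Ndufs7, went from 22.7 ± 3.06 to 14.7 ± 3.51 (SD, n = 3), the lowest change of the 5 (log2 -0.61, SE 0.22, adjusted p = 0.192, limma). Ndufaf1, which helps to build the membrane arm, had means of 56.3 ± 1.53 and 48.0 ± 2, and Ndufaf6 of 26.7 ± 2.08 and 21.0 ± 2 (SD, n = 3).

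Assembly factors without the Nduf prefix, such as Acad9 and Tmem126b of the same early assembly complex as Ndufaf1, lay nearer 0. Of 7 listed, 6 had a negative change, the median was -0.10, and 0 were called (1 lower at an unadjusted p under 0.05, limma). The 7 mitochondrially encoded subunits, the core of the membrane arm, were all negative with a median of -1.01. In limma 0 of them were called (3 lower at an unadjusted p under 0.05), with standard errors of 0.17 to 0.62. Among the other Nduf symbols, Ndufa4, a protein now assigned to cytochrome c oxidase, was 250, 281 and 281 against 214, 184 and 184 (log2 -0.48, SE 0.17, adjusted p = 0.178, limma).

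**Figure D2:**
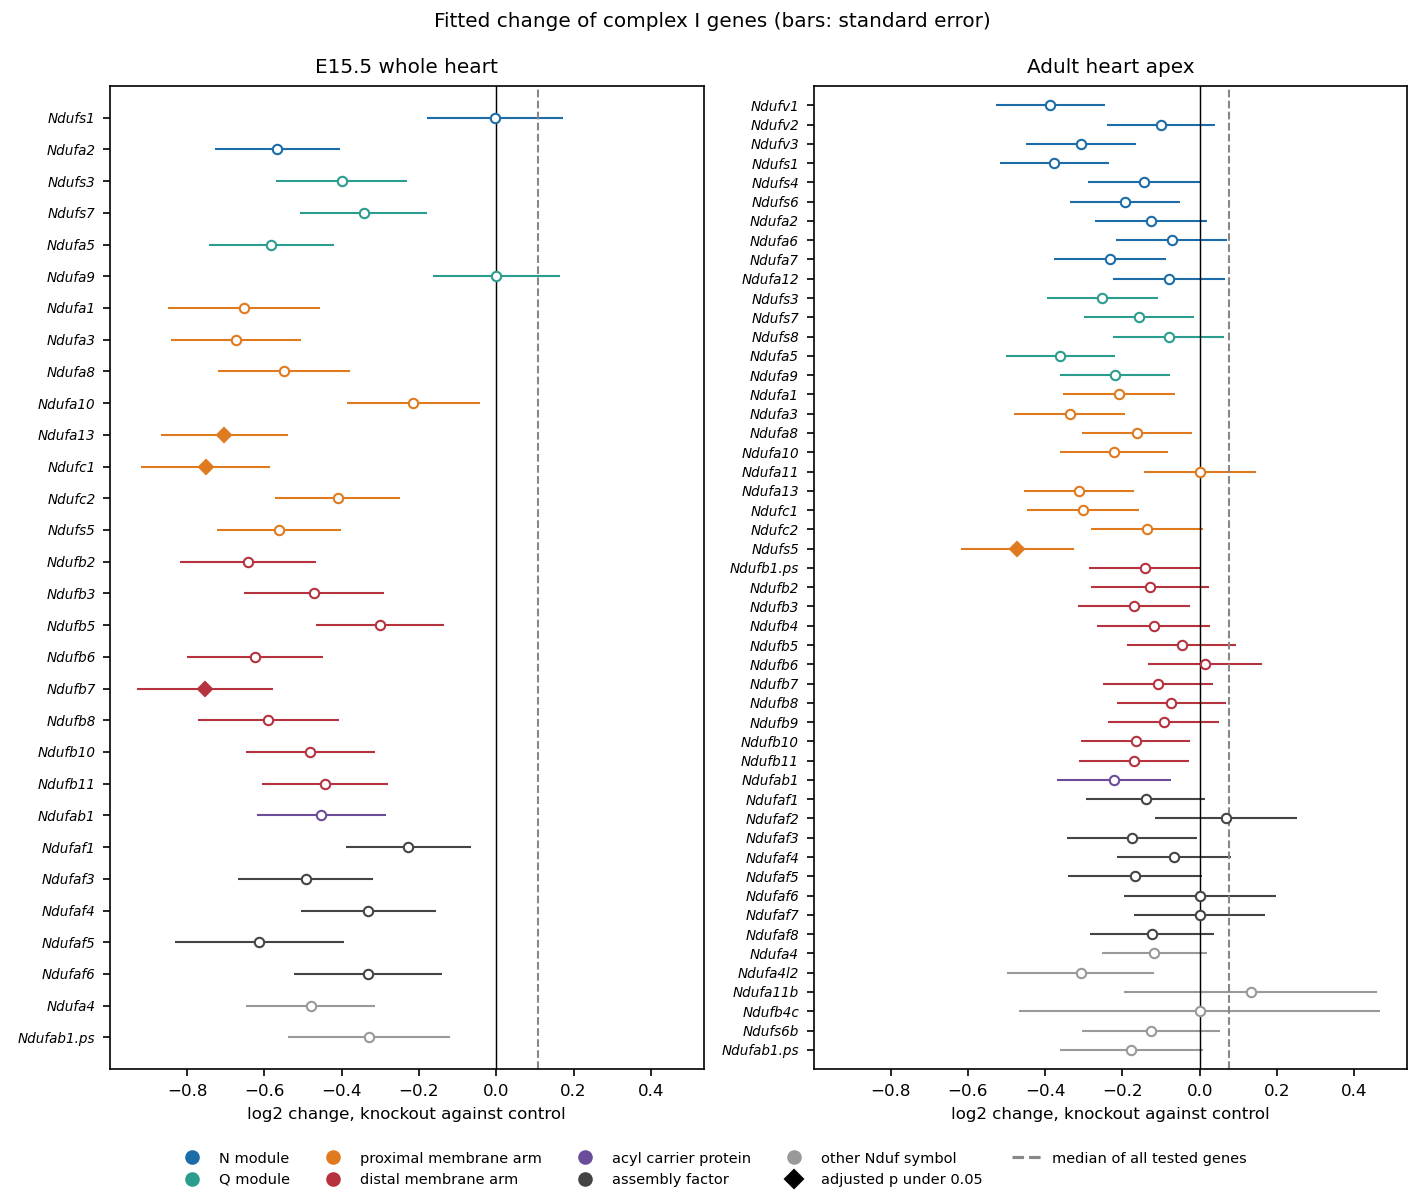
Fitted log2 change (x axis, knockout against control) of Nduf genes at E15.5 (left) and in the adult (right), coloured by module; bars are standard errors, filled diamonds have an adjusted p under 0.05 (limma) and the dashed line is the median of all tested genes. The embryonic subunits lie between -0.75 and 0.00 and the adult ones between -0.47 and 0.01, to the left of the median of all genes in both panels.

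Subunit genes of complex I are mostly short, and at E15.5 other short coding genes also had negative medians. Transcript length was the spliced length of the transcript with the longest coding sequence in GENCODE vM21 (GRCm38). It was taken over genes with a mean of at least 10, of which 91.7% had a length. Among other coding genes the median change was -0.32 in 176 genes under 750 bases (82.4% negative), -0.22 in 252 genes of 750 to 1000 bases (76.6% negative) and -0.04 in 1539 genes of 1000 to 2000 bases. It was 0.12 in 3125 genes of 2000 to 4000 bases and 0.16 in 2549 longer genes. The subunits of the same 5 ranges had medians of -0.59 (9 subunits), -0.47 (5), -0.35 (6), -0.22 (3) and -0.64 (1), each below that of the other genes. Of 24 subunits 19 lay below the lower quartile of the other genes in their length range.

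Across the 24 subunits, change rose with length (Spearman's rho 0.50) and with the mean value over both groups (rho 0.64). That value is not scaled by a stated length. Across other genes change rose with length (rho 0.33). Genes share libraries and are not independent replicates. The part that length or level plays in the subunit changes was not tested.

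**Figure D3:**
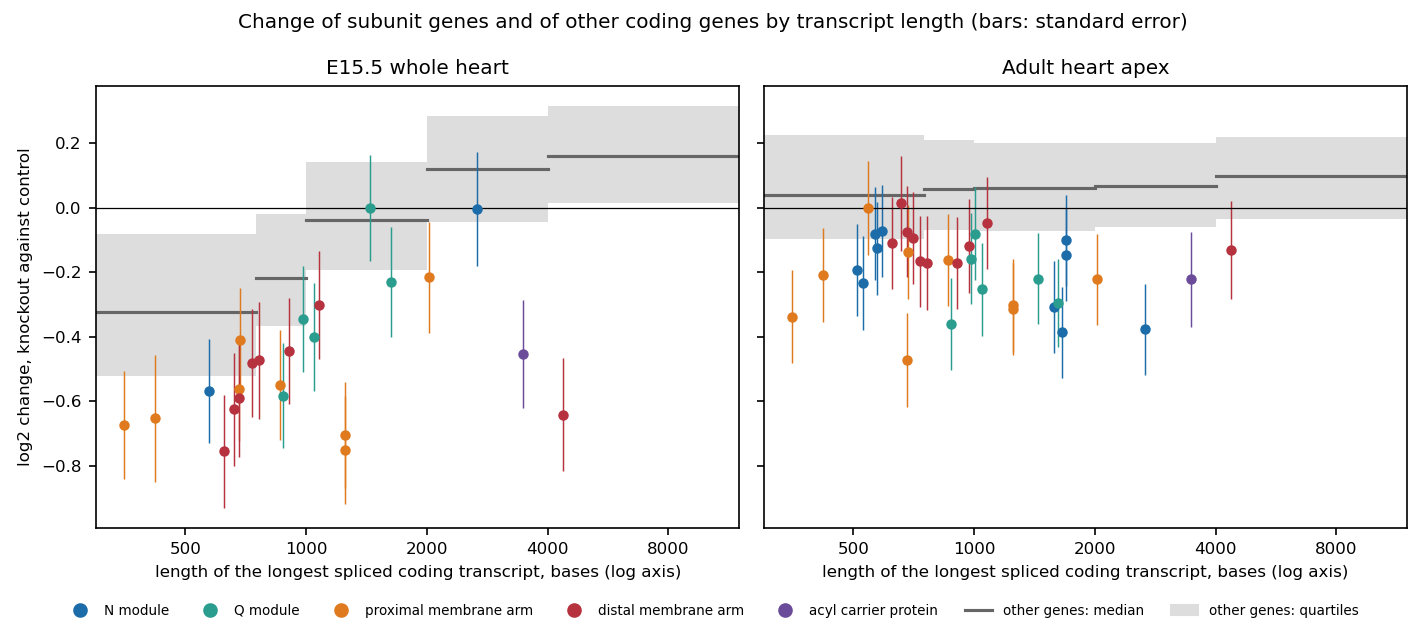
Log2 change (y axis, knockout against control) against transcript length (x axis, bases, log axis) for subunits with a length, coloured by module with standard errors. Panels are E15.5 (left, 24 subunits) and the adult (right, 36 subunits). Length is that of the transcript with the longest coding sequence, spliced, although the axis label reads longest spliced coding transcript. Grey bars and lines are the quartiles and the median of other coding genes in each length range. At E15.5 the grey medians run from -0.32 in the shortest range to 0.16 in the longest, and in the adult from 0.04 to 0.10.

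Markers of heart muscle cells moved with the subunits at E15.5. Of 13 cardiomyocyte markers 8 were listed and 7 had a negative change (median -0.41), beside 33.1% of all tested genes. Tnnc1 (cardiac troponin C) alone of the 8 fell past the threshold. Their summed level was 23224 to 27318 in the wild-type hearts and 17728 to 21819 in the knockout hearts, without overlap, and 0 of the 8 were at 0 in any sample. Taken singly, 8.75% of all tested genes had every knockout heart below every wild-type heart. Erythroid (3125 to 7710 against 4815 to 9630), fibroblast (3683 to 4601 against 4561 to 5476) and epicardial (146 to 238 against 207 to 299) sums overlapped between groups and had positive medians of 0.32, 0.33 and 0.41. Endothelial markers had a median of 0.23, smooth muscle and pericyte markers of -0.29 (2 of 7 listed) and macrophage markers of -0.08. Of the other lists Pdgfra (fibroblast) rose and Rgs5 (pericyte) fell past the threshold in limma. Over all tested genes 0.529% were called higher and 0.103% lower. Of these lists Cd163 alone, a macrophage marker, was at 0 in any sample. The part of these shifts in the subunit changes was not tested. In whole tissue, fewer cells of a type and less RNA per cell cannot be told apart.

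In the adult apex the subunits were again lower in the samples labelled mCKO, by smaller amounts. Of 37 subunits 35 had a negative change, against 28.6% of 14835 tested genes, with a median of -0.17 against 0.076 over all tested genes. In 33 of 37 both mCKO samples lay below both controls (12.8% of all tested genes), and in 0 of 37 did both lie above. Past the threshold there was 1 subunit (141 of all genes, 0.95%, were called lower and 3.29% were called in either direction), and at an unadjusted p under 0.05 there were 9 (3.3% of all genes). For the median adult gene the variance in this fit comes wholly from genes of similar level, so the standard errors, 0.14 to 0.15 over the 37 subunits, are not each gene's own spread.

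**Figure D4:**
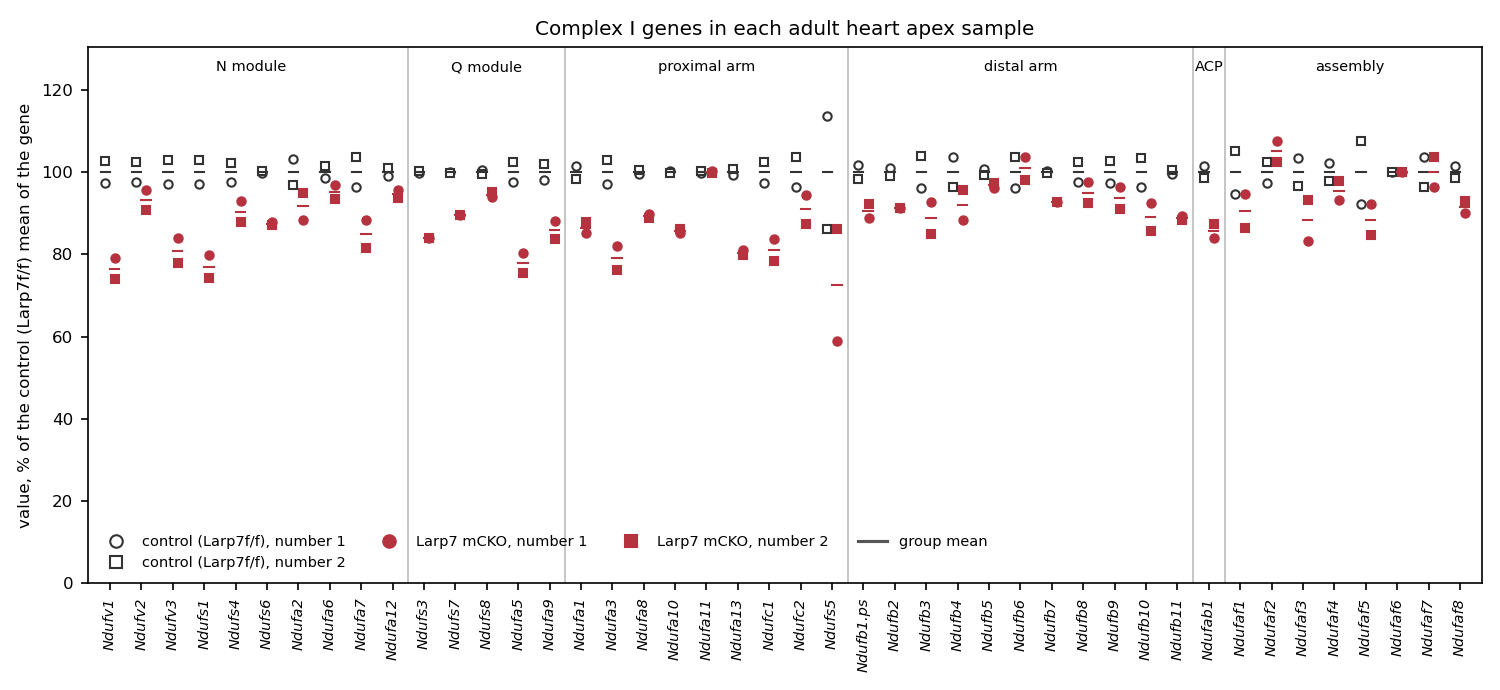
Values of subunit and assembly factor genes in each adult apex sample, as a percentage of the gene's control mean (y axis, from 0), grouped by module; open symbols are controls, filled symbols are mCKO samples, the symbol shape is the sample number and short lines are group means. The mCKO means of the subunits shown other than Ndufb6 and Ndufa11 lie below 100%, with Ndufs5 lowest at 72.6%, and the 2 mCKO samples of Ndufs5 lie far apart.

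The 1 called subunit rests on 1 sample number. Ndufs5, a proximal-arm subunit of the intermembrane space side, was 174 and 132 in the controls and 90 and 132 in the mCKO samples. The groups met at 132, at means of 153 ± 29.7 and 111 ± 29.7 (SD, n = 2). Its log2 change was -0.47 (SE 0.15, adjusted p = 0.044, limma), but the standard error from its own values alone was 0.47. Without number 1 of either group the change was 0, and without number 2 it was -0.94. Ndufs5 spans chromosome 4 from 123712710 to 123718202 (GRCm38, minus strand).

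The adult core subunits were lower in all 7 cases, without overlap between groups, with a median of -0.25 and 0 called (3 lower at an unadjusted p under 0.05, limma). Ndufv1, which binds NADH and flavin, was 688 and 725 in the controls and 559 and 522 in the mCKO samples (log2 -0.39, SE 0.14, adjusted p = 0.118, limma). Ndufs1 was 576 and 611 against 474 and 440 (log2 -0.38, SE 0.14, adjusted p = 0.14, limma). These 2 N-module subunits had the largest core changes, at 76.5% and 77.0% of the control mean.

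In the Q module, Ndufs3 was 288 and 289 in the controls against 242 and 242 (-0.25, SE 0.14), and Ndufs7 was 430 and 429 against 385 and 385 (-0.16, SE 0.14). Replicates of Ndufs3 and Ndufs7 differed by no more than 1 unit, far less than the gap between the groups. With the fixed totals, close agreement in 1 group brings it in the other. Neither gene was called (adjusted p = 0.49 and 0.785, limma). Ndufs8, an iron-sulfur subunit, was 230 and 228 against 215 and 218 (-0.08, SE 0.14). Ndufv2, an iron-sulfur subunit of the N module, was 592 and 621 against 580 and 551 (-0.10, SE 0.14).

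Beside Ndufs5, Ndufv1 and Ndufs1, the lowest change was that of Ndufa5, a Q-module subunit, at 472 and 495 against 388 and 365 (log2 -0.36, SE 0.14, adjusted p = 0.181, limma). At the other end Ndufb6, a distal-arm subunit, was 102 and 110 against 110 and 104 (0.01), and Ndufa11, a proximal-arm subunit, was 192 and 193 against 193 and 192 (0.00). Ndufb5 (375 and 370 against 358 and 363) and Ndufa6 (292 and 301 against 287 and 277) had changes of -0.05 and -0.07. The order of the modules was not that of the embryo, where fewer subunits were listed (medians -0.285 over 2 N-module and -0.343 over 5 Q-module subunits). In the adult the medians were -0.17 over 10 N-module, -0.24 over 6 Q-module, -0.22 over 9 proximal and -0.12 over 11 distal subunits. The peripheral arm (-0.21 over 16) was lower than the membrane arm (-0.15 over 20). Whether the modules differ was not tested.

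Adult assembly factors showed little. Of 8 listed, 5 had a negative change, the median was -0.10, and 0 were called (0 lower at an unadjusted p under 0.05, limma). Both samples of each group were 16 for Ndufaf6. Control and mCKO means were 47.5 and 43.0 for Ndufaf1, 19.5 and 20.5 for Ndufaf2, which works late on the N module, 30.0 and 26.5 for Ndufaf3 and 88.0 and 84.0 for Ndufaf4. They were 26.0 and 23.0 for Ndufaf5, 27.0 and 27.0 for Ndufaf7, a methyltransferase, and 35.5 and 32.5 for Ndufaf8, the partner of Ndufaf5. Among these 8 only Ndufaf3 and Ndufaf8 had both mCKO samples below both controls.

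Of 12 assembly factors without the Nduf prefix 6 were negative, with a median of -0.05, and 0 were called (0 lower at an unadjusted p under 0.05, limma). The mitochondrially encoded subunits had 3 of 7 negative, a median of 0.05 and 0 called (0 lower at an unadjusted p under 0.05, limma). The remaining Nduf symbols, among them Ndufa4 and its relative Ndufa4l2, had changes between -0.31 and 0.13 and 0 calls (0 lower at an unadjusted p under 0.05, limma). Ndufab1.ps, Ndufs6b, Ndufb4c and Ndufa11b are annotated in GENCODE vM21 as processed pseudogenes, with names after Ndufab1, Ndufs6, Ndufb4 and Ndufa11, and the sources used here do not give how reads shared with them were counted, so values of these genes and of their namesakes are uncertain.

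The trend with length across other genes was weaker in the adult. Their medians rose from 0.04 in the shortest range to 0.10 in the longest (Spearman's rho 0.0775). Across 36 subunits change fell slightly with length (Spearman's rho -0.28) and with the mean value over both groups (rho -0.22). Of the 36, 29 lay below the lower quartile of other genes in their range. Cardiomyocyte markers in the adult were 13 of 13 listed, 7 negative with a median of -0.01, and 2, Mybpc3 and Myh7, rose past the threshold, as did 2 of 6 epicardial markers, Aldh1a2 and Krt19 (2.34% of all tested genes were called higher). The cardiomyocyte sums were 70763 to 73047 in the controls and 69161 to 71449 in the mCKO samples. Fibroblast sums were 1185 to 1500 against 2270 to 2587 (median 0.87), epicardial sums 23 to 60 against 73 to 110 (1.35) and macrophage sums 443 to 455 against 538 to 549 (0.21), each without overlap. Erythroid sums were 129 to 1486 against 1273 to 2889 (1.57), with overlap. Endothelial sums were 900 to 934 against 821 to 856 (-0.11), also without overlap, with 8 of 8 markers negative and 0 called. Smooth muscle and pericyte sums were 782 to 800 against 760 to 779, without overlap, with 3 markers negative, 2 positive and a median of 0.00. Taken singly, 29.3% of all tested genes had both mCKO samples above both controls, and 12.8% had both below. At 0 in at least 1 sample were Krt19 (epicardial), Tagln (smooth muscle) and Epb42 (erythroid). Their part in the subunit changes was not tested.

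The tables were scaled separately and share no samples, so changes in them stand side by side. Of the 24 subunits in both, 22 were negative in both, against 12.2% of the 9769 genes tested in both. The knockout samples lay below all controls in both for 18, against 2.65% of those genes. The change was more negative at E15.5 for 20. The order of the subunits was not shared (Pearson's r -0.11, Spearman's rho -0.08 over 24 genes, a description). Ndufs1 had one of the smallest changes at E15.5 (0.00) and one of the largest in the adult (-0.38), whereas Ndufb7 was lowest at E15.5 (-0.75) and had -0.11 in the adult, at 313 and 312 against 290 and 290. Ndufc1 (226 and 238 against 194 and 182, -0.30) and Ndufa13 (373 and 378 against 304 and 300, -0.31) were below their controls in both. Differences between the models were not tested.

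Promoter windows of 300 bases, from 250 before to 50 after the RefSeq start site (GRCm38.p6), were found for 33 of 37 subunits and searched on both strands for motifs named after regulators of respiratory genes. The NRF1 motif (GCGC, any base, TGCGC) was in 7 of 33 subunits (21.2%), against 4.6% of all 32851 windows and 10.9% of 10515 adult tested genes with a window. The YY1 motif (AAGATGGC) was in 7 of 33 (21.2%), against 2.75% of all windows and 4.95% of those genes. The ERR motif (AAGGTCA) was in 3 of 33 (9.09%), against 4.72% of all windows and 4.0% of those genes. The ETS motif (CCGGAAGT) was in 1 of 33 (3.03%), against 3.89% and 8.52%. None of the 4 motifs contains another, and only Ndufs6 held both an NRF1 and a YY1 match. A match is a run of letters and not a shown binding site.

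All 7 YY1 matches lay after the start site, between positions 23 and 46 with the start site as 1, on the gene's strand, and the ATG inside each was the annotated start codon in GENCODE vM21. They are shown, in 30 bases each with the match in capitals, because they share place and strand, which the motif search did not ask for. Ndufc1, called at E15.5, and Ndufa3, next in order, are among them, as is Ndufa9, whose change was 0.00. The share of YY1 matches in other genes with this place and strand is not given here, so it is not shown to be particular to subunits. The assembly factor Ndufaf8 also held a YY1 match on its strand, at positions 11 to 18, where the ATG was not the annotated start codon. The windows are chr3:51408915-51408944 (Ndufc1, minus strand), chr7:3617384-3617413 (Ndufa3, plus), chr6:126849097-126849126 (Ndufa9, minus), chr19:44555393-44555422 (Ndufb8, minus), chr10:80249462-80249491 (Ndufs7, plus), chr13:114388045-114388074 (Ndufs4, minus) and chr13:73328433-73328462 (Ndufs6, minus).
Ndufc1: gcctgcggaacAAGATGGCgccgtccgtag
Ndufa3: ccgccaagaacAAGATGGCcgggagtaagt
Ndufa9: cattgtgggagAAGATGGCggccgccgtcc
Ndufb8: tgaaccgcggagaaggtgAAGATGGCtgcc
Ndufs7: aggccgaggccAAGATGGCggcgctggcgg
Ndufs4: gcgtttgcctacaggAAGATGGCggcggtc
Ndufs6: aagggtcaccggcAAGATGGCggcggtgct

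**Figure D5:**
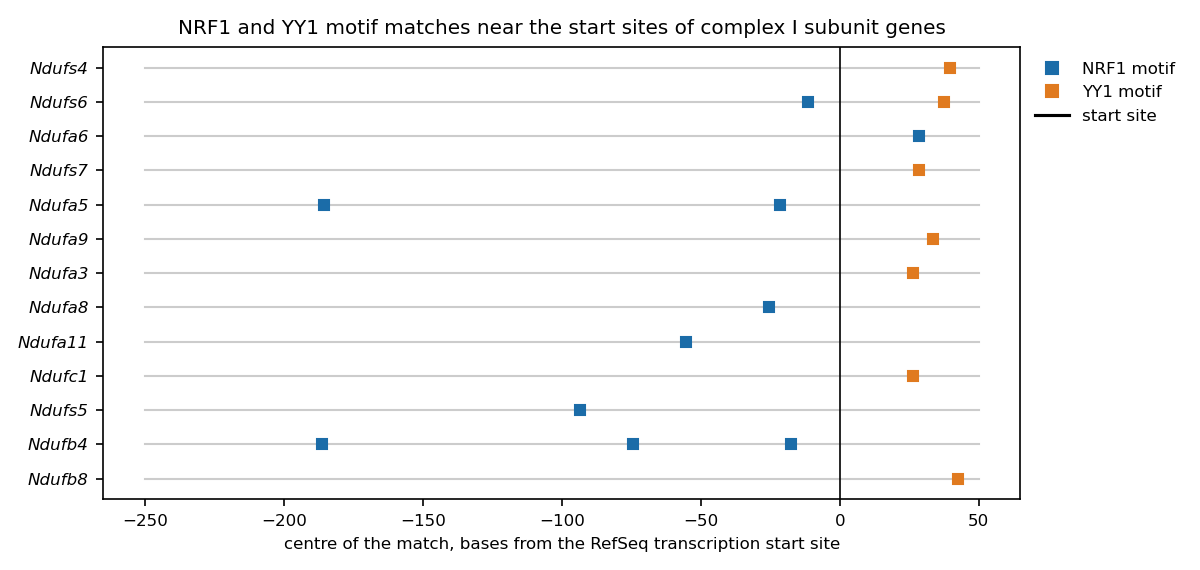
Centres of NRF1 (blue) and YY1 (orange) motif matches, in bases from the RefSeq transcription start site (x axis), in the 300-base windows (grey lines) of the subunit genes that hold one; Ndufa5 has 2 annotated starts, and its marks are the same match counted from each. The 7 YY1 matches lie between positions 23 and 46, and NRF1 matches lie on both sides of the start site.

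Changes of subunits with and without a match stood as follows. At E15.5 the median was -0.59 over 5 subunits with the YY1 motif and -0.52 over 16 without it, and -0.56 over 3 with the NRF1 motif and -0.48 over 18 without it. In the adult it was -0.19 over 7 with the YY1 motif and -0.16 over 26 without, and -0.16 over 7 with the NRF1 motif and -0.17 over 26 without. The ERR motif was in 2 subunits listed at E15.5 (median -0.60, against -0.48 over 19 without it) and 3 in the adult (-0.13 against -0.17). The ETS motif was in 1 subunit (-0.40 against -0.56 at E15.5, and -0.25 against -0.16 in the adult). These are descriptions with no test. Of neighbouring genes that start head to head with a subunit, 2 were tested at E15.5 and 0 were negative. In the adult 2 of 7 were negative, near the 28.6% of all tested genes, and in limma 0 were called.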

How the data were processed

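Total RNA of mouse hearts was sequenced, and the submitters' processing notes name HISAT2 and HTSeq (no versions) and the mouse build mm10. The authors deposited, for each model, a score per gene and sample: a per-million value rounded to whole numbers. Whether it is TPM or CPM, and why control and knockout values of a number add to a fixed total, are points that the sources used here do not give. The deposited tables also hold the authors' p-values and log2 fold changes, in columns named as in DESeq2 output per the file headers.

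Each table was fitted with limma (version 3.58.1, under R version 4.3.3) on log2(value + 1), with group and sample number as terms. The variance of rounding (0.0833) was added per gene, followed by eBayes with trend and robust options and Benjamini-Hochberg adjustment at 0.05. A gene was tested if at least as many samples as make up a group had a value of 1 or more. The numbers enter as a block because of the fixed totals, not because the labels pair the samples, and the fit keeps 2 (E15.5) and 1 (adult) residual degrees of freedom. The fit was tested on simulated data.

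The members, modules, marker lists, tests and motifs were chosen with earlier results of these data known. Of the genes counted, 1 is not reported here by itself. Every sample value is given for the other nuclear core subunits, the called members, and the 4 lowest and 4 highest subunit changes per table. The 30-base YY1 windows and the neighbouring genes were added after values were seen. Ndufb1.ps was counted as a subunit because RefSeq lists that name under Ndufb1, but GENCODE vM21 has the name as a noncoding gene, so its value is uncertain. Lengths and coordinates are from GENCODE vM21, promoters from RefSeq GRCm38.p6, by symbol (41 of 51 members matched).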

Additional observations from a re-analysis of the deposited data

How the results depend on the processing

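The direction of the subunit medians held under every alternative run, and the number of called subunits did not. With no replicate block, limma called 11 subunits lower at E15.5 and 5 in the adult, against 3 and 1 with it. Over all tested genes it called 174 lower at E15.5, against 14 with the block. In the adult it called 252 higher and 157 lower, against 347 and 141. Ndufs5, the adult call with the block, was not among the 5 (adjusted p = 0.329, limma). With neither block nor rounding variance (chosen after seeing the data) limma called 10 and 9 subunits. Over all tested genes 339 were then lower at E15.5, and 1133 were higher and 489 lower in the adult. The block with no rounding variance gave 0 at E15.5 (15 lower at an unadjusted p under 0.05), where limma called 0 of all tested genes. In the adult it gave 3, again without Ndufs5 (adjusted p = 0.62, limma), beside 833 higher and 297 lower of 14835 tested genes. Scaling by median of ratios gave 2 at E15.5, where Ndufb7 was lost (adjusted p = 0.0786, limma), beside 13 lower over all tested genes. At E15.5 the count was 7 with a pseudocount of 5 and 12 with no filter on low values, beside 37 and 121 lower over all tested genes. The E15.5 count was 0 with a pseudocount of 0.5 or a mean of at least 10 (19 lower at an unadjusted p under 0.05 in each). It was also 0 with eBayes without trend and robust options (13) and with no moderation of the variance (3). With a pseudocount of 0.5 limma called 7 of all tested genes lower. With a mean of at least 10, eBayes without those options or no moderation it called 0 genes in all. Those 0 counts are therefore not particular to the subunits. In the adult, eBayes without trend and robust options and no moderation of the variance gave 0 (0 and 6 lower at an unadjusted p under 0.05). Over all tested adult genes the former called 457 higher and 153 lower, and the latter called 0. Scaling by median of ratios gave 3 subunit calls in the adult and moved the median there to -0.23. Over all tested adult genes 285 were then higher and 210 lower. Without any 1 sample, the E15.5 count ranged from 2 to 7, highest without number 2 of either group, and the E15.5 median from -0.62 to -0.36. Over all tested genes 40 to 87 were called lower in those runs. The adult median ranged from -0.18 to -0.16. Leaving out an adult sample leaves 0 residual degrees of freedom with the block, so no test was possible there. The cause of these shifts was not tested. Depth is unknown, so it sets no stated limit.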
